A study of Mus musculus with 8 samples.

Results

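The genes described here carry the names of the proteins of the cytosolic ribosome, measured as RNA in the distal ileum of mice that lack Cftr. They were chosen by name alone: each gene symbol made of Rpl, Rps or Rplp, a number and at most a short suffix letter or digit, plus Rpsa, without pseudogene names, kinases or mitochondrial ribosomal proteins. This gave 88 of the 41128 gene symbols measured, 37 of the small and 51 of the large ribosomal subunit. Of these, 79 (32 small and 47 large) reached a value of 1 in 3 or more of the 6 untreated libraries and were tested. The 9 that did not pass are Rpl10l, Rpl35a, Rpl39l, Rpl3l, Rps12l1, Rps12l2, Rps3a2, Rps3a3 and Rps4l, and their values are given with their relatives. Of the 88, GENCODE lists 83 as protein coding and 4 as pseudogenes (Rps12l1, Rps3a2, Rps3a3 and Rps4l, whose symbols carry no pseudogene ending), and Rps12l2 had no match.

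RNA came from whole tissue sections taken less than 6 cm from the ileocecal valve, 1 library per mouse, in 8 mice that form 4 littermate couples. Each couple pairs a Cftr -/- mouse (KO), which carries the Cftrtm1Cam null allele congenic on FVB, with a sex-matched Cftr N/N littermate (WT). The KO (n = 3) and WT (n = 3) mice of couples 1, 2 and 3 were untreated. The labels give couple 2 as male and the other untreated couples as female. A further couple, labelled female, drank water with 2 antibacterial drugs, ciprofloxacin at 0.3 g/L and metronidazole at 0.5 g/L, and gave 1 KO ABX and 1 WT ABX library. All mice ate a low-fibre diet and had received an osmotic laxative, which had stopped over 4 days before tissue was taken. Both mice of a couple were sampled in the same 20 min window, from 12 to 14 h.

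A ribosome joins a small subunit, which reads the mRNA, and a large subunit, which forms the peptide bonds and lets the new protein out through its exit tunnel. Their proteins are needed in matched amounts, and many of their mRNAs begin with a run of pyrimidines (C or T) right at the start site. This run is known as the 5′ terminal oligopyrimidine (TOP) motif, through which mTORC1 and Larp1 set the translation of these mRNAs. In the intestine, cells divide and grow at the base of the crypts, where demand for new ribosomes is high, and mature into enterocytes as they move up the villus.

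The start-site sequences below mark the pyrimidine run where one meets the rule given here, in genes with large and genes with small KO minus WT differences. Each spans 30 bases before to 25 bases after the annotated start, on the strand of the gene, 5′ to 3′. They come from RefSeq on GRCm38.p6. Capitals mark the longest run of C or T that begins with C within 10 bases of the annotated start, where it has at least 5 bases. The first 6 belong to genes with some of the largest KO minus WT differences (Rps16, Rpl27, Rps12, Rps27, Rpl14 and Rpl15), at chr7:28350659-28350713 (plus strand), chr11:101442215-101442269 (plus), chr10:23787185-23787239 (minus), chr3:90213624-90213678 (minus), chr9:120571487-120571541 (plus) and chr14:18270962-18271016 (minus).
Rps16: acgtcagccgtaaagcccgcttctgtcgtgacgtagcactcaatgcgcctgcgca
Rpl27: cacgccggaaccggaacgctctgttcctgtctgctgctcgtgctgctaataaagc
Rps12: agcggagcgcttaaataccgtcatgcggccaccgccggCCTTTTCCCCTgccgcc
Rps27: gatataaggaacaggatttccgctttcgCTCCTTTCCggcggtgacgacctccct
Rpl14: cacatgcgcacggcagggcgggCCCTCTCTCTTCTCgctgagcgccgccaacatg
Rpl15: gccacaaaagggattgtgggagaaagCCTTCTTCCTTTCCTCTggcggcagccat

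The next 4 belong to genes with some of the smallest differences (Rpl28, Rps26, Rps4x and Rpl4), at chr7:4792935-4792989 (plus), chr10:128626482-128626536 (minus), chrX:102189367-102189421 (minus) and chr9:64173357-64173411 (plus).
Rpl28: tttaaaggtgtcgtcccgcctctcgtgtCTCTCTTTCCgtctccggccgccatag
Rps26: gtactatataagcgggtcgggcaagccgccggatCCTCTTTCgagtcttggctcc
Rps4x: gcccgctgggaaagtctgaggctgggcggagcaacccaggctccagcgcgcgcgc
Rpl4: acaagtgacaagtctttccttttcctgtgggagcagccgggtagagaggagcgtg

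Both sets hold windows with a marked run and windows without one. Rpl15, with a run of 17 bases, and Rps16, with no run of 5, are both in the first set. A start annotated some bases away from the one used in the ileum would move or hide a run, and no value here bears on the start used. For Rpl27 the sources differ: the printed window ends at 101442269, before the gene start of 101442298 in GENCODE.

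Among the 63 members with a RefSeq start-site window, 39 (61.9%) had such a run of at least 5 bases, against 33.3% of all 27025 genes with a window. A run of at least 8 bases was present in 24 (38.1%), against 9.09% of all genes, and the median longest run was 6 bases in the members and 4 in all genes. Of the 59 tested members with a window, the run of at least 5 was present in 20 of the 29 with the larger and in 15 of the 30 with the smaller KO minus WT differences. In the wider window of 300 bases (250 before to 50 after the start), 5 short motifs were searched on both strands. CCGGAAG, the letters bound by ETS-family factors, was present in 41.3% of members and 9.93% of all genes. TCTCGCG was present in 22.2% of members and 2.92% of all genes, and AAGATGG, the letters bound by YY1, in 15.9% and 7.28%. CTTTCC was present in 52.4% of members and 29.3% of all genes, and CTTTTCC in 17.5% and 9.30%; neither of these contains the other, but both can lie in 1 pyrimidine run. A match is a description of letters and not of binding.

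Values are the authors' RPKM-like values, whose unit is not named. They were taken to rest on reads scaled by library size and gene length, then matched in distribution between libraries. Differences are KO minus WT on the log2(value + 1) scale, which understates the change of low genes. Cftr itself was at 3.74, 2.65 and 3.17 in KO and 12.4, 9.94 and 10.1 in WT ileum (couples 1, 2 and 3), and at 4.94 in KO ABX and 13.8 in WT ABX ileum. Its log2 change was -1.50 (SE 0.17, limma adjusted p = 0.0070). All 7 ileal markers examined (among them Fabp6, Slc10a2 and Slc51a) were above 0 in all 8 libraries, with sums of 1695 to 4052 in KO and 7231 to 9720 in WT. Of the 7, 1 had a fitted change above 0: Slc10a2, at 92.0, 63.7 and 153 in KO and 38.2, 56.3 and 46.0 in WT. Normalization ran in 3 sets: couples 1 and 2 together, couple 3 alone and the antibiotic pair alone. In the first set all 4 libraries hold identical sorted values. Of the distinct KO values, 96.5% recur in the WT library in couple 3 and 90.8% in the antibiotic pair. The distribution of values over all genes was thus held nearly equal within a set. The depth is unknown. Ribosomal protein genes have many near-identical processed copies, and the sources used here do not say how reads that match several places were counted. The level of each member is therefore uncertain. The 246 ribosomal pseudogene symbols of the table summed to 55.0, 87.9 and 142 in KO and 76.3, 43.7 and 98.0 in WT.

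In untreated ileum, ribosomal protein genes lay slightly higher in KO mice than in their WT littermates across both subunits. The fitted log2 change was above 0 in 78 of the 79 tested members, against 48.3% of all 11717 tested genes. Its median was 0.40 (quartiles 0.29 and 0.50, range -0.04 to 0.97), against -0.01 over all tested genes. The median was 0.40 in the 32 small-subunit and 0.40 in the 47 large-subunit members. A fitted change of at least 1.5-fold was reached by 15 of 79 members (6.1% of all tested genes), and 2-fold by 0. The 738 tested genes at or above the lower quartile of the members' levels, members among them included, had a median change of 0.03.

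No single member passed the test on the 6 untreated libraries. In limma without a block, 0 of 79 members were called higher and 0 lower at an adjusted p under 0.05, while 1.15% of all tested genes were called higher and 1.01% lower. At an unadjusted p under 0.05 there were 11 members, against 16.0% of all tested genes. The lowest adjusted p among the members was 0.0814, for Rps16. In limma without a trend in the prior variance, Rps16 had an adjusted p of 0.0325. The share of all tested genes called in that fit is not given here.

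With the littermate couple as a block, 32 of 79 members rose in KO ileum, 11 of the small and 21 of the large subunit, and 0 fell. In that fit 8.4% of all tested genes were called higher and 9.91% lower, and 62 members had an unadjusted p under 0.05, against 38.9% of all tested genes. With a couple left out, the blocked fit called 6 members (without couple 1), 0 (without couple 2) and 1 (without couple 3). Such fits have fewer samples and lose calls over all genes too. Over all fits with a couple or library left out, with or without the block, 0 to 248 genes were called higher. Couple numbers mark litters. Couples 1 and 2 share 1 normalization set, and for couple 3, normalized alone, litter and set cannot be told apart. In bulk tissue, more RNA per cell and more cells of a type that is rich in these mRNAs cannot be told apart either.

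**Figure D1:**
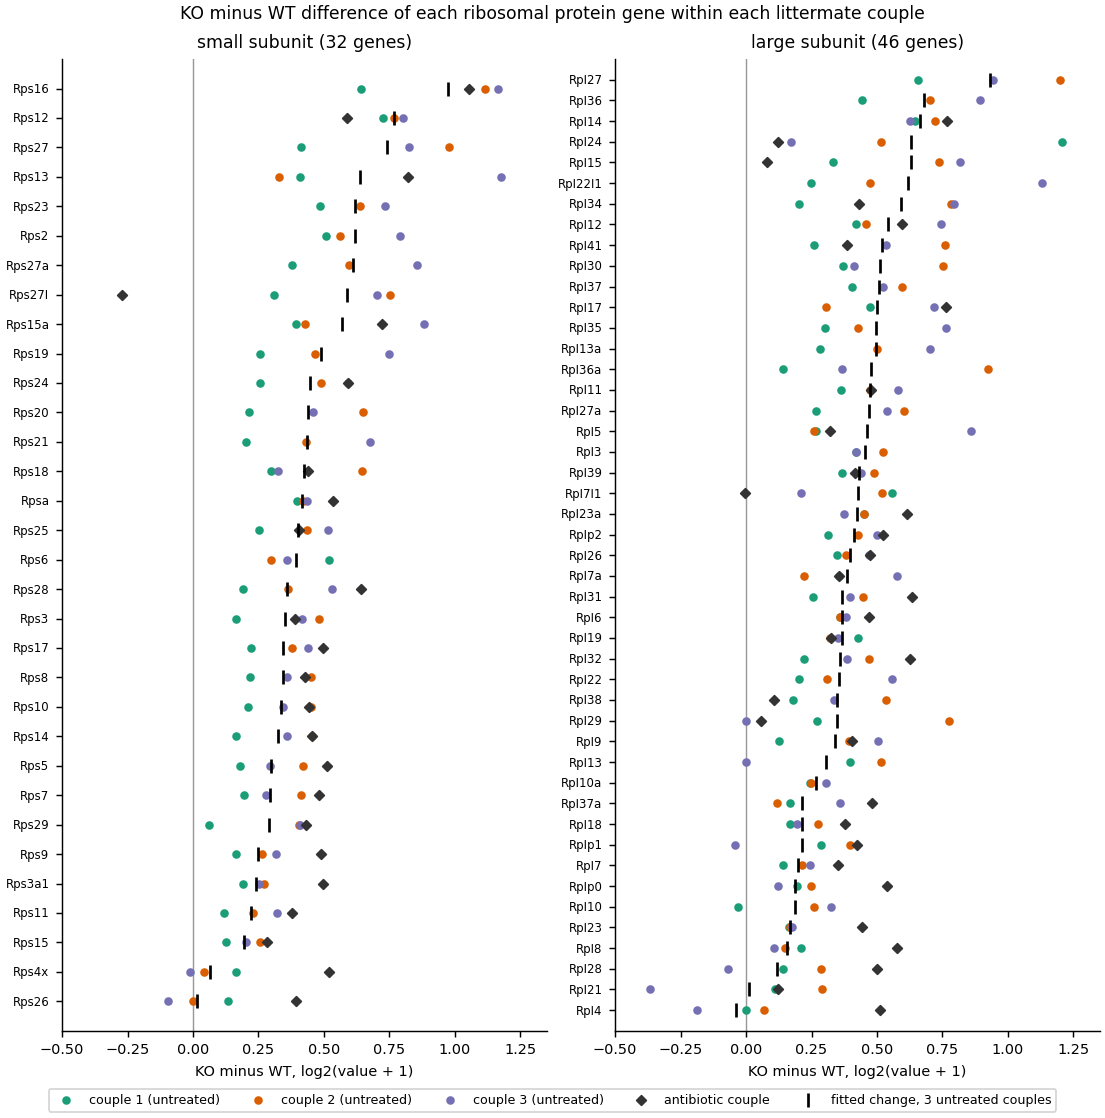
KO minus WT difference on the log2(value + 1) scale for 78 of the 79 tested ribosomal protein genes, small subunit on the left and large subunit on the right, with 1 point per littermate couple and a black bar for the fitted change over the 3 untreated couples. Nearly all points lie right of 0, from Rps16 with a fitted change of 0.97 at the top of the small subunit to Rpl4 with -0.04 at the bottom of the large subunit.

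Littermates showed the difference couple by couple. KO was above WT in all 3 untreated couples in 70 of 79 members, against 28.1% of all tested genes. In couples 1, 2 and 3 the median log2 difference was 0.26, 0.43 and 0.41, or 1.20-fold, 1.37-fold and 1.36-fold on the values themselves. Over all tested genes it was -0.02, 0.00 and -0.03, medians that the matched distributions within each set tend to hold near 0. Without regard to couples, all 3 KO values lay above all 3 WT values in 14 members, against 10.4% of all tested genes, and below them in 0, against 12.1%.

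**Figure D2:**
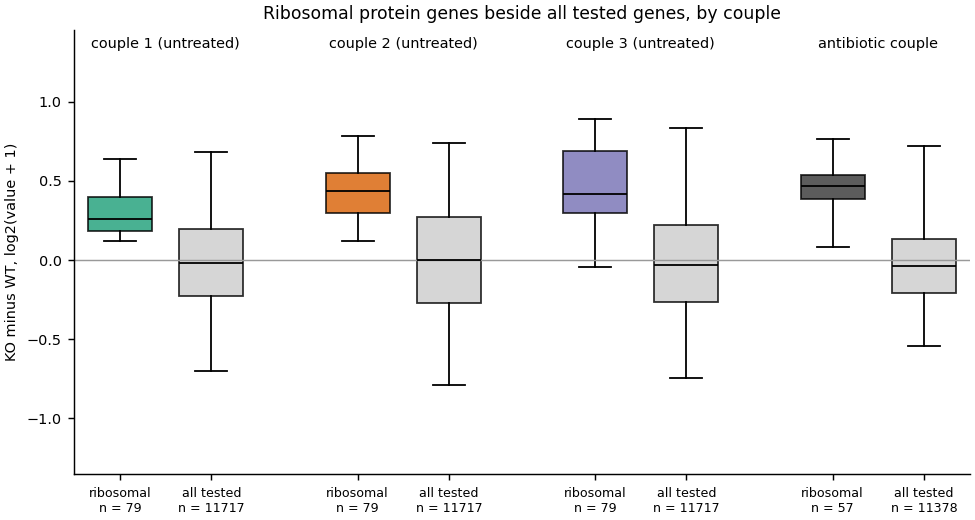
KO minus WT difference on the log2(value + 1) scale in each littermate couple, for the tested ribosomal protein genes (coloured) and for all tested genes (grey); boxes are quartiles with the median and whiskers run from the 5th to the 95th percentile. The ribosomal boxes lie above 0 in all 4 couples (medians 0.26, 0.43, 0.41 and, under antibiotics, 0.47), while the grey boxes centre near 0.

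Members had short total exon lengths, and the KO minus WT difference of all genes ran with this length. It joins the exons of all annotated transcripts of a gene, so it can exceed the length of the mRNA. How well it stands in for mRNA length in the correction below was not tested. The median total exon length was 1781 bases in the members (383 to 6270) and 4199.5 in all tested genes with a length. When tested genes were cut into 5 equal bins from the shortest to the longest, the median change was 0.14, 0.04, -0.02, -0.05 and -0.12. The members in these bins numbered 50, 21, 6, 2 and 0, and their medians in the first 4 bins were 0.38, 0.40, 0.45 and 0.51. After each library was corrected for its own trend of level on length, the median change of the members was 0.31, with 70 of 79 above 0. With this correction and the couple block together, 26 members rose (8.83% of all genes so tested) and 0 fell (9.65%). Of the 32 called with the block alone, 23 kept the call with both and 9 lost it, while 3 others gained one. The 9 are Rpl17, Rpl19, Rpl23a, Rpl26, Rpl35, Rpl36, Rps25, Rps27l and Rps6. Within the members, change and log2 exon length had a Pearson r of -0.01 and a Spearman rho of 0.03, over 79 genes measured in the same 6 libraries.

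Together the 88 genes made up 4.13%, 4.88% and 4.53% of the summed values in KO and 3.45%, 3.73% and 3.55% in WT ileum. Each KO library lay above each WT library, by 0.938 percentage points on average. In a second version the 100 highest genes of each library were left out, with the members among them, so the members counted could differ between libraries. The shares were then 4.69%, 4.33% and 4.95% in KO and 4.16%, 4.33% and 4.52% in WT, a mean difference of 0.318 points. In couple 2 they were nearly equal. With the same most abundant members left out of every library instead, the rest made up 3.32%, 3.93% and 3.69% of the full sum in KO and 2.76%, 2.93% and 2.77% in WT.

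Rps16 and Rps12 headed the small subunit. Rps16, whose protein reaches with its tail toward the tRNA in the peptidyl site, lies on chromosome 7 at 28350652 to 28353155 (GRCm38). It was at 354, 391 and 429 in KO and 227, 180 and 191 in WT ileum. The groups did not overlap, and the lowest KO value was 1.5-fold or more above each WT value. The log2 change was 0.97 (SE 0.22, limma adjusted p = 0.0814, and 0.0206 with the block).

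Rps12, a protein of the head of the small subunit, was at 307, 346 and 555 in KO and 185, 203 and 318 in WT ileum. The groups overlapped, since couple 3 was high in both genotypes, but KO was above WT by a similar step in each couple (0.73, 0.77 and 0.80). Its log2 change was 0.77 (SE 0.33, limma adjusted p = 0.312), and with the block its adjusted p of 0.0140 was the lowest of all members.

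Rps27, a zinc-binding protein, was at 94.1, 118 and 89.9 in KO and 70.4, 59.5 and 50.3 in WT, with no overlap. Rps23, which lies at the decoding centre, was at 246, 331 and 256 in KO and 176, 213 and 153 in WT, also with no overlap. Both rose with the block (log2 change 0.74 and 0.62, limma adjusted p = 0.0305 and 0.0221), and without it their adjusted p was 0.135 and 0.256. Rps2, near the mRNA entry, was low in this table, at 16.2, 27.8 and 7.38 in KO and 11.1, 18.6 and 3.85 in WT. Rps13 was at 264, 157 and 171 in KO and 199, 124 and 75.2 in WT, and most of its difference came from couple 3 (1.18, against 0.41 and 0.33). Their groups overlapped, and the blocked fit called Rps2 (log2 change 0.62, limma adjusted p = 0.0217) but not Rps13 (0.64, limma adjusted p = 0.0793).

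At the other end of the small subunit stood Rps26, which lines the mRNA exit and was among the 3 most abundant members. Its values were 436, 814 and 457 in KO and 397, 814 and 488 in WT ileum. Littermates were nearly equal in each couple, and the log2 change was 0.01 (SE 0.38, limma adjusted p = 0.991).

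Rpl27 had the largest difference in the large subunit. The gene lies on chromosome 11 at 101442298 to 101445529 (GRCm38) and was at 34.2, 61.3 and 45.5 in KO and 21.3, 26.2 and 23.1 in WT ileum. The groups did not overlap, and KO couple 2 stood highest. The log2 change was 0.93 (SE 0.23, limma adjusted p = 0.102, and 0.0187 with the block).

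Rpl14 was at 255, 304 and 303 in KO and 163, 184 and 196 in WT ileum. It was even across litters: the groups did not overlap and the 3 couples differed by 0.65, 0.72 and 0.63. Rpl15, whose start site has the longest run shown above, was at 58.8, 78.0 and 74.5 in KO and 46.5, 46.3 and 41.9 in WT. Its groups did not overlap either. Both rose with the block (log2 change 0.67 and 0.63, limma adjusted p = 0.0165 and 0.0344), and without it their adjusted p was 0.174 and 0.143.

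Among the 12 largest differences, Rpl36, Rpl24 and Rpl22l1 had the 3 largest SEs without the block (0.76, 1.03 and 1.05), each with levels far apart between couples; Rpl22l1 is described with its partner. Rpl36 was at 96.5, 558 and 173 in KO and 70.7, 343 and 92.7 in WT ileum. Rpl24, which helps bridge the subunits, was at 42.4, 163 and 13.7 in KO and 17.8, 114 and 12.1 in WT. In both genes couple 2 was far above the other couples in both genotypes, so the groups overlapped. Rpl36 rose with the block (log2 change 0.68, limma adjusted p = 0.0274), a call that ended once exon length, at 383 bases the shortest of the members, was corrected for as well (0.12, limma adjusted p = 0.568). Rpl24 did not pass with the block (0.63, limma adjusted p = 0.0969). For both, leaving out the KO library of couple 2 turned the sign without a block (-0.02 and -0.27).

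Rpl4, whose protein forms part of the exit tunnel wall, was the single member with a fitted change below 0. It was at 493, 406 and 543 in KO and 493, 388 and 618 in WT ileum. Couple 1 was equal, couple 2 slightly higher in KO and couple 3 lower in KO, and the log2 change was -0.04 (SE 0.28, limma adjusted p = 0.965). Rpl28 was at 193, 370 and 265 in KO and 175, 304 and 278 in WT. Its groups overlapped, and the log2 change was 0.12 (limma adjusted p = 0.907). Rpl21 was at 5.52, 72.4 and 2.38 in KO and 5.03, 59.1 and 3.37 in WT, and its change of 0.01 had an SE of 1.32, so no direction can be given for it.

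**Figure D3:**
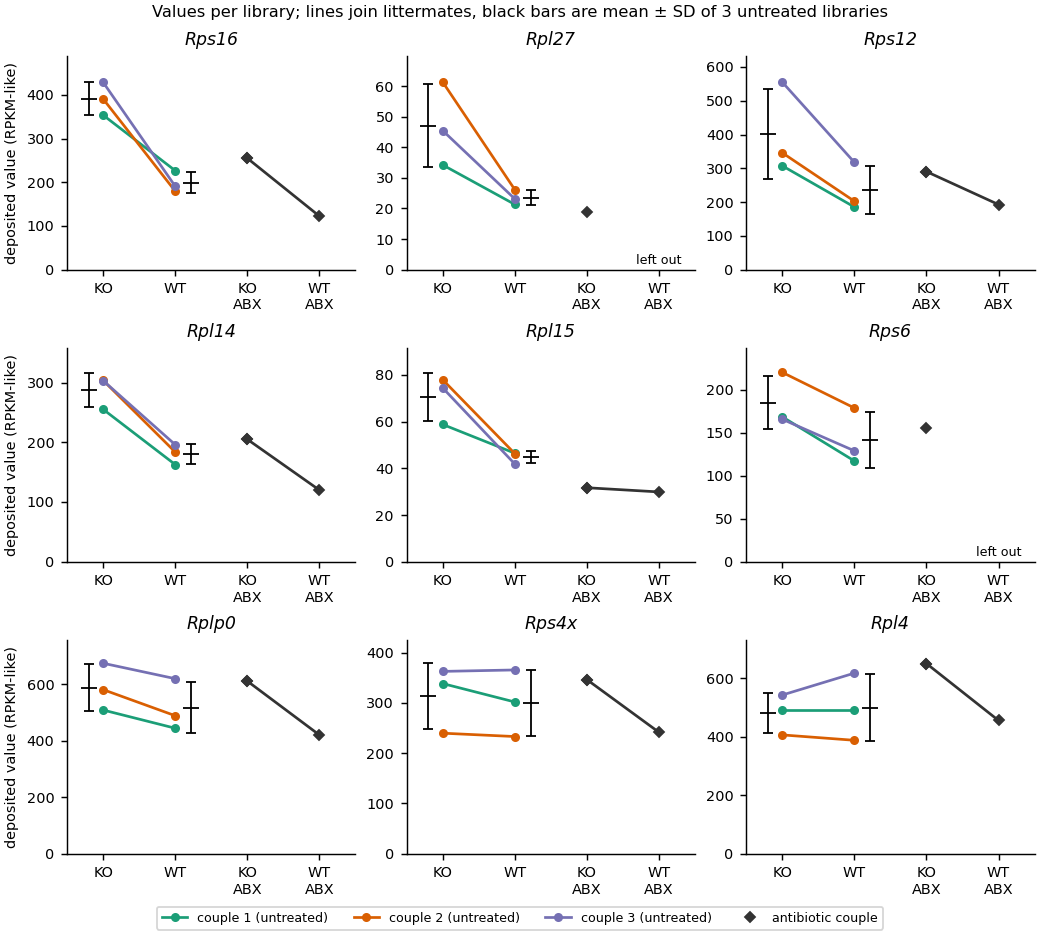
Deposited RPKM-like value of 9 ribosomal protein genes in each library, KO left of WT and KO ABX left of WT ABX; lines join littermates and black bars are the mean ± SD of 3 untreated libraries. Rps16, Rpl27, Rpl14 and Rpl15 have all KO values above all WT values, Rps12 differs by a like step in each couple, and Rps4x and Rpl4 have nearly level lines in the untreated couples.

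The stalk proteins recruit the factors that drive translation. Rplp0, the stalk base, was at 509, 581 and 675 in KO and 445, 489 and 620 in WT ileum. Rplp1 was among the most abundant members, at 916, 573 and 941 in KO and 751, 436 and 970 in WT, and Rplp2 was at 120, 70.9 and 136 in KO and 96.3, 52.5 and 95.8 in WT. Groups overlapped in all 3, and KO was above WT in each couple except Rplp1 in couple 3. Rplp2 rose with the block (log2 change 0.41, limma adjusted p = 0.0350), while Rplp0 (0.19, 0.193 with the block) and Rplp1 (0.21, 0.269 with the block) did not pass. After the correction for exon length the change was 0.11 for Rplp0 and -0.25 for Rplp1.

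4 members lie on the X chromosome. Rps4x was at 338, 240 and 363 in KO and 302, 233 and 365 in WT ileum, and Rpl10, which sits near the peptidyl transferase centre, at 67.0, 64.6 and 102 in KO and 68.5, 53.8 and 81.5 in WT. Neither passed in either fit: the log2 changes were 0.06 and 0.19, with limma adjusted p of 0.945 and 0.786 and, with the block, 0.615 and 0.233. Rpl39 was at 121, 20.1 and 155 in KO and 93.9, 14.1 and 114 in WT, and Rpl36a at 29.2, 26.5 and 14.6 in KO and 26.4, 13.5 and 11.1 in WT. Couple 2 stood far below the others in Rpl39 but not in Rpl36a. Rpl39 rose with the block (0.43, limma adjusted p = 0.0282), and Rpl36a did not pass (0.48, limma adjusted p = 0.107).

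Several members have a related copy. Rps27l, the paralog of Rps27, was at 102, 41.7 and 103 in KO and 82.1, 24.3 and 63.2 in WT ileum and rose with the block (log2 change 0.59, limma adjusted p = 0.0359). With exon length corrected as well it did not pass (0.32, limma adjusted p = 0.0844). Rpl22l1 was at 112, 11.0 and 84.4 in KO and 94.2, 7.67 and 38.1 in WT, and its partner Rpl22, needed in mouse T cell development, at 48.2, 26.6 and 58.0 in KO and 41.7, 21.3 and 39.1 in WT. KO was above WT in each couple for both genes, but neither passed with the block (limma adjusted p = 0.0797 and 0.0654). Rpl7l1 was low, at 15.1, 19.1 and 14.7 in KO and 9.95, 13.0 and 12.6 in WT. Its groups did not overlap and it rose with the block (0.43, limma adjusted p = 0.0490), while Rpl7, at 190, 120 and 233 in KO and 172, 103 and 196 in WT, did not pass (0.20, limma adjusted p = 0.131).

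Copies known from testis (Rpl10l, Rpl39l) or muscle (Rpl3l), and the Rps4x relative Rps4l, were near 0 in this table. Rpl10l reached at most 1.17 (KO couple 3), Rpl39l at most 0.144, Rpl3l at most 0.148 and Rps4l at most 0.215, with 0 listed in at least 1 untreated library of each. Their partners were far higher: Rpl3, a core protein near the peptidyl transferase centre, was at 66.0, 31.5 and 25.6 in KO and 49.1, 21.6 and 18.8 in WT. Rpl3 rose with the block (log2 change 0.46, limma adjusted p = 0.0255). Rps12l1, Rps12l2, Rps3a2 and Rps3a3 reached at most 0.00162. Rpl35a, a regular large-subunit protein, also failed the filter, at 0.701, 3.81 and 0 in KO and 0.883, 2.85 and 0 in WT. Rpl13 and Rpl29 were likewise listed at 0 in both libraries of couple 3, and a value of 0 in this table is not read as absence.

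Some members have known functions outside the ribosome. Rpl5 and Rpl11 bind Mdm2 when ribosome assembly is disturbed. Rpl11 was at 74.7, 93.9 and 79.7 in KO and 57.9, 67.3 and 53.0 in WT ileum, with no overlap, and Rpl5 at 93.9, 35.7 and 85.3 in KO and 78.0, 29.7 and 46.6 in WT, with overlap. Rpl11 rose with the block (log2 change 0.47, limma adjusted p = 0.0286), and Rpl5 did not pass (0.46, limma adjusted p = 0.0888). Rps6, the target of S6 kinase, was at 169, 220 and 166 in KO and 117, 179 and 129 in WT, and Rpsa, the laminin receptor precursor, at 343, 489 and 501 in KO and 260, 365 and 370 in WT. Both groups overlapped, and both genes rose with the block (0.39 and 0.42, limma adjusted p = 0.0445 and 0.0368). With exon length corrected as well, Rps6 did not pass (0.30, limma adjusted p = 0.0992).

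Rps27a, made as a fusion with ubiquitin, was at 88.9, 50.4 and 101 in KO and 68.2, 33.0 and 55.1 in WT ileum. Rpl13a, part of a translation-blocking complex in human myeloid cells, was at 143, 203 and 198 in KO and 117, 143 and 121 in WT. The groups overlapped in both genes, in Rpl13a by a narrow margin, and both rose with the block (log2 change 0.61 and 0.50, limma adjusted p = 0.0339 and 0.0442). Rps3, which also acts in DNA repair, was at 110, 123 and 140 in KO and 98.2, 88.2 and 105 in WT, with no overlap. It did not pass with the block (0.35, limma adjusted p = 0.0648). Rpl32, among the most abundant members at 581, 620 and 741 in KO and 498, 448 and 567 in WT, had no overlap and did not pass either (0.36, limma adjusted p = 0.0681, and 0.16 after the correction for exon length). Rpl30, low at 10.4, 8.44 and 7.55 in KO and 7.80, 4.60 and 5.43 in WT, overlapped by a narrow margin and rose with the block (0.51, limma adjusted p = 0.0405).

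Levels of some members differed far more between couples than between littermates. Over the 79 members, log2 levels of littermates had a Pearson r of 0.99 in each couple. Between WT libraries r was 0.97 for couples 1 and 3, 0.77 for couples 1 and 2 and 0.80 for couples 2 and 3, each pair sharing the same genes and their lengths. Both libraries of couple 2 lay at least 2-fold above the other 4 untreated libraries in 7 members (0.444% of all tested genes): Rpl13, Rpl17, Rpl21, Rpl23a, Rpl24, Rpl29 and Rpl7a. They lay at least 2-fold below them in 3 (0.819%): Rpl22l1, Rpl39 and Rps18. The same counts were 0 and 0 for couple 1 (0.188% and 0.102%) and 0 and 2 for couple 3 (0.0427% and 1.05%).

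Rpl23a was the clearest case, at 84.4, 542 and 94.0 in KO and 61.6, 397 and 72.2 in WT ileum. Rpl17 was at 79.8, 283 and 98.8 in KO and 57.1, 229 and 59.6 in WT, and Rps18 at 103, 40.6 and 138 in KO and 83.5, 25.6 and 110 in WT. KO was above its littermate in all 3 couples for these 3 genes, and Rpl23a and Rpl17 rose with the block (log2 change 0.42 and 0.50, limma adjusted p = 0.0308 and 0.0420). Neither passed once exon length was corrected for as well (0.17 and 0.37, limma adjusted p = 0.167 and 0.0755). Couple 2 is the male couple, and reads came from a HiSeq 2000 or an Ion Proton without a statement of which library ran on which. Sex, litter and instrument cannot be told apart here. The KO ABX library lay closer to couples 1 and 3: log2 levels in KO ABX ileum had r of 0.96, 0.79 and 0.98 with KO of couples 1, 2 and 3.

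**Figure D4:**
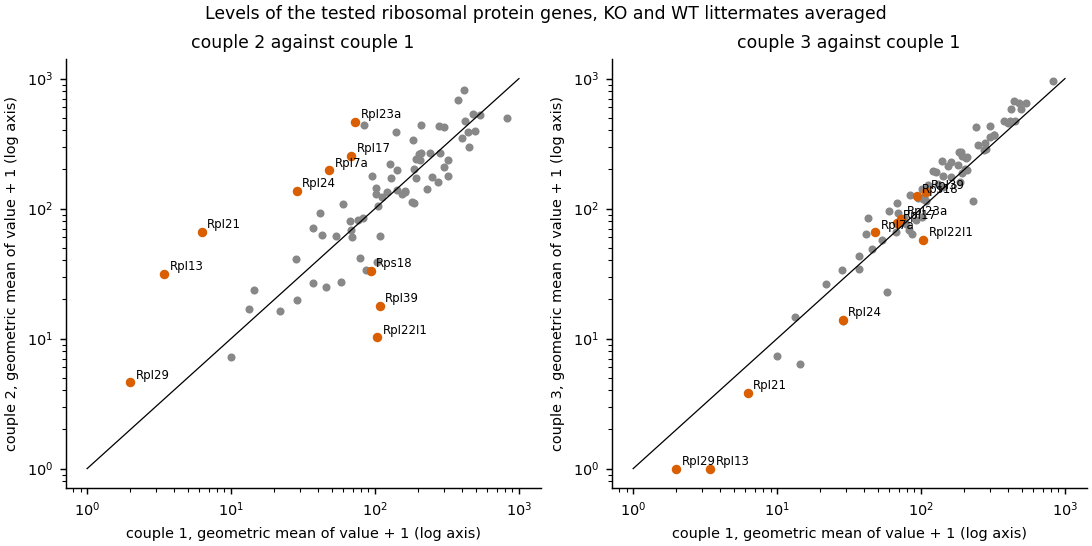
Level of each tested ribosomal protein gene in couple 2 (left) and couple 3 (right) against couple 1, as the geometric mean of value + 1 over the KO and WT littermates on log axes; the line marks equal levels and the named orange points are the 10 genes with both couple 2 libraries at least 2-fold away from the other 4 untreated libraries. These genes leave the line in couple 2, while in couple 3 most of them lie near it.

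The size of the difference was only loosely shared between couples. Across the 79 members, log2 differences had a Pearson r of 0.47 between couples 1 and 2, 0.38 between couples 1 and 3 and 0.53 between couples 2 and 3, against 0.62, 0.64 and 0.58 over all tested genes. Members with higher levels had somewhat smaller fitted changes (Pearson r -0.27, Spearman rho -0.39), over genes measured in the same libraries. Rpl24 shows the spread: it had the largest difference of all members in couple 1 (1.20) and 0.17 in couple 3.

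The couple given antibiotics also had higher values in KO than in WT. After WT ABX values shared by several genes were left out (23 of the 88 members, among 376 genes in that column), 57 tested members remained. KO ABX was above WT ABX in 55 of these 57, against 43.4% of all genes compared, and by at least 1.5-fold in 12, against 6.44%. The median log2 difference was 0.47 (quartiles 0.39 and 0.53), against -0.04 over all genes compared, or 1.39-fold on the values. In the same 57 members the untreated couples 1, 2 and 3 were at 1.17-fold, 1.33-fold and 1.30-fold. The 65 members with an unshared WT ABX value made up 3.49% of the summed values in KO ABX and 2.39% in WT ABX ileum. For the same 65, the untreated shares were 3.58%, 4.08% and 3.94% in KO and 3.01%, 3.19% and 3.17% in WT. Leaving out the 100 highest genes of each library also removed the members among them, so the members counted could differ between libraries. The shares of the rest of the 65 were then 3.91% in KO ABX and 3.42% in WT ABX. In untreated ileum they were 3.72%, 3.20% and 3.92% in KO and 3.39%, 3.37% and 3.86% in WT, with KO below WT in couple 2. With the same most abundant members left out of every library instead, the rest made up 2.77%, 3.13% and 3.11% of the full sum in KO. They made up 2.32%, 2.38% and 2.39% in WT, 2.68% in KO ABX and 1.82% in WT ABX. With 1 mouse per genotype, the antibiotic difference has no replicate.

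Whether the KO minus WT difference under antibiotics departed from that in the untreated couples was tested over all 8 libraries with the couple as a block. None of the 57 members was called (0 higher and 0 lower, against 0.121% and 0.0259% of 11561 genes), and 2 members had an unadjusted p under 0.05, against 16.1% of all genes. limma without the block also called 0 members (0.0605% of genes higher and 0.00865% lower), with 0 at an unadjusted p under 0.05. The median of the antibiotic minus untreated difference was 0.12 in the members, with 44 of 57 above 0, and 0.00 over all genes. This does not show that the differences were equal, since the spread comes from 3 couples and the antibiotic arm from 1.

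The 3 largest antibiotic minus untreated differences belonged to members with small differences in untreated ileum, which enter this value as well. Rpl4 was at 650 in KO ABX and 456 in WT ABX ileum, Rps4x at 346 and 242, and Rpl8, which lies at the peptidyl transferase centre, at 538 and 360. Their antibiotic minus untreated differences were 0.55 (SE 0.20), 0.45 (SE 0.17) and 0.42 (SE 0.17), with limma adjusted p of 0.294, 0.310 and 0.334. At the other end, Rps27l was at 44.4 in KO ABX and 53.8 in WT ABX, Rpl15 at 31.7 and 29.9, and Rpl24 at 8.47 and 7.70. Their differences from the untreated couples were -0.86 (SE 0.23), -0.55 (SE 0.24) and -0.51 (SE 0.42), with limma adjusted p of 0.221, 0.350 and 0.565. Rps16 had the largest log2 difference of all members in the antibiotic couple too (1.05), at 255 in KO ABX and 123 in WT ABX, and Rpl14 was at 205 and 120 (0.77). Rps27l and Rpl7l1 were the 2 members not above WT in the antibiotic couple, Rpl7l1 at 7.09 in KO ABX and 7.10 in WT ABX.

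Genes that build or regulate ribosomes were set beside their proteins. Of 42 tested ribosome biogenesis genes, which process ribosomal RNA and assemble the subunits, 39 had a change above 0 in untreated ileum, with a median of 0.34. None passed without the block, and 20 rose and 0 fell with it, against 8.4% and 9.91% of all tested genes. Rpf2, which in yeast helps bring Rpl5 and Rpl11 into the large subunit, was at 8.52, 5.52 and 6.96 in KO and 5.18, 2.79 and 4.44 in WT. The nucleolar GTPase Gnl3 was at 20.4, 12.6 and 13.3 in KO and 12.3, 7.94 and 8.65 in WT. Both rose with the block (log2 change 0.65 and 0.62, limma adjusted p = 0.0191 and 0.0163), while Sbds, a late maturation factor, had -0.29 (limma adjusted p = 0.0624 with the block). In the antibiotic couple the median of the biogenesis list was 0.08, against 0.41, 0.39 and 0.28 in couples 1, 2 and 3.

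The 77 tested mitochondrial ribosomal protein genes form the ribosome of the mitochondrion. All 77 had a change above 0 in untreated ileum, with a median of 0.30, and 0 passed without and 9 rose with the block, a share near the 8.4% of all tested genes. Mrps28, at 21.7, 25.1 and 24.8 in KO and 14.2, 16.3 and 15.4 in WT, rose with the block (log2 change 0.61, limma adjusted p = 0.0159, and 0.32 with exon length corrected). In the antibiotic couple the median was -0.11, against 0.17, 0.46 and 0.23 in couples 1, 2 and 3. There the cytosolic members had 0.47, so the medians of both ribosomes lay on opposite sides of 0 in that couple. This contrast was not tested.

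Of 22 other genes with TOP mRNAs, mostly translation factors, 17 had a change above 0, with a median of 0.19; with the block 4 rose and 1 fell. Npm1, a nucleolar chaperone, was at 117, 67.7 and 97.9 in KO and 77.5, 48.0 and 68.0 in WT ileum and rose with the block (log2 change 0.53, limma adjusted p = 0.0202). Eef2, which moves the ribosome along the mRNA, was at 448, 514 and 488 in KO and 550, 893 and 772 in WT. Its groups did not overlap and it fell with the block (-0.58, limma adjusted p = 0.0465). In the antibiotic couple Eef2 was at 864 in KO ABX and 627 in WT ABX, and the list's median was 0.23.

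Gnb2l1, the ribosome-bound scaffold RACK1, had a log2 change of 0.27 and Fau, which encodes a small-subunit protein fused to a ubiquitin-like one, -0.02, with limma adjusted p of 0.0740 and 0.897 with the block. Of 12 RNA polymerase I genes, which make ribosomal RNA, 11 had a change above 0 with a median of 0.18, and 1 rose with the block, Polr1d (0.35, limma adjusted p = 0.0454). Of 17 mTORC1 and TOP regulators, 9 had a change above 0 with a median of 0.01, and 2 rose with the block. These were Eif4ebp1, a translation inhibitor held off by mTORC1, and Myc, a driver of ribosome synthesis (0.94 and 0.53, limma adjusted p = 0.00975 and 0.0231). Mtor had -0.34 and Larp1 -0.06, with limma adjusted p of 0.0763 and 0.740 with the block.

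**Figure D5:**
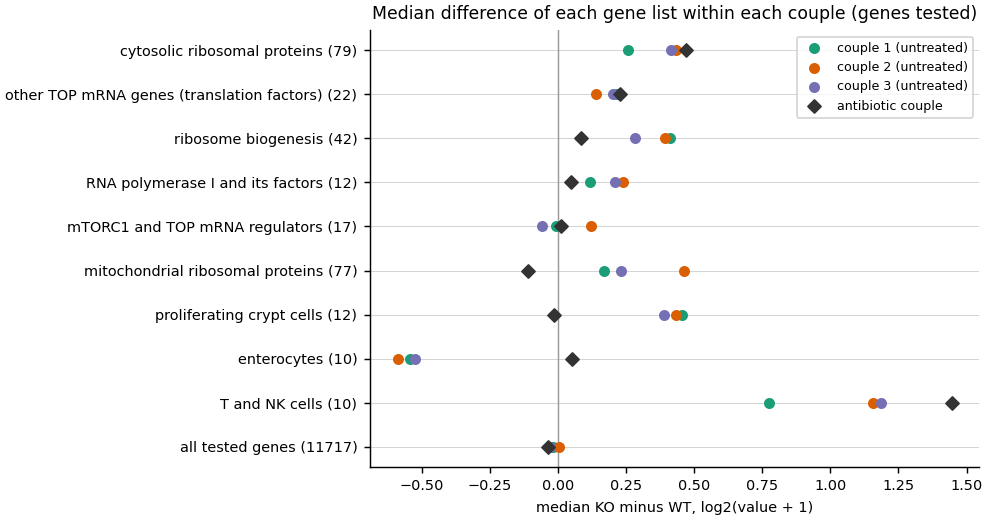
Median KO minus WT difference on the log2(value + 1) scale of each gene list in each littermate couple, with the number of genes tested in untreated ileum in brackets. Cytosolic ribosomal proteins lie between 0.26 and 0.47 in all 4 couples, whereas ribosome biogenesis (0.08), mitochondrial ribosomal proteins (-0.11) and proliferation markers (-0.02) lie near or below 0 in the antibiotic couple.

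Markers of other cell states moved with genotype in the same libraries. All 12 markers of proliferating crypt cells had a change above 0 in untreated ileum (median 0.44), with sums of 161 to 200 in KO and 122 to 145 in WT, and 7 rose with the block. In the antibiotic couple their median was -0.02, with sums of 109 in KO ABX and 102 in WT ABX. All 10 enterocyte markers had a change below 0 (median -0.56), with sums of 9017 to 16189 in KO and 17422 to 24289 in WT, and 5 fell with the block. In the antibiotic couple the enterocyte median was 0.05, with sums of 30560 in KO ABX and 25954 in WT ABX. Most of that difference in sums came from Apoa4 (6822 in KO ABX and 2774 in WT ABX). The other markers went both ways, with Sis lower in KO ABX (292 and 546). All listed markers of both types were above 0 in all libraries.

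Immune markers stood higher in KO in untreated and antibiotic ileum. The 10 T and NK cell markers had a median change of 1.08, with sums of 69.5 to 133 in KO and 30.8 to 39.9 in WT, and 1 rose without the block (Cd3g) and 4 with it. Their sums were 49.4 in KO ABX and 11.3 in WT ABX. The 8 B and plasma cell markers had a median of 0.77, with sums of 358 to 712 in KO and 190 to 302 in WT, and 2 rose without the block and 4 with it. Their sums were 498 in KO ABX and 132 in WT ABX. The remaining lists had medians of 0.12 (9 macrophage and dendritic cell markers), 0.34 (7 Paneth cell markers), -0.14 (6 stem cell markers) and -0.15 (8 smooth muscle markers). The part of these cell types in the ribosomal protein values was not tested.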

How the data were processed

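RNA-seq values of whole distal ileum were taken for all 8 libraries. Per the labels' protocols and the series' design text, polyadenylated RNA was sequenced on a HiSeq 2000 or an Ion Proton, and the authors used CLC Genomics Workbench 7.5 with its defaults to map reads to GRCm38 (annotation release 76). The deposited values are RPKM-like: their unit is not named, and the counting rule is not given in the sources used here. They were taken to rest on RPKM since they are not whole numbers. Their sums do not bear on the unit, since the libraries of couples 1 and 2 share 1 sum. The 4 libraries of couples 1 and 2 hold identical sorted values, couple 3 and the antibiotic couple were normalized apart, and the depth is unknown, so no counting interval is given. In all libraries longer genes had lower values (slope of log2 value on log2 exon length -0.55 to -0.37).

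Values were analysed as log2(value + 1). Genes with at least 1 in at least 3 of the 6 untreated libraries were fitted together with limma 3.58.1 (trend in the prior variance, R 4.3.3), with Benjamini-Hochberg adjustment over all tested genes and a threshold of 0.05, and the ribosomal protein genes were read from that fit. Couple numbers mark litters per the labels. Deviations from the group means were correlated between littermates (r over all genes 0.62, 0.64 and 0.51 in couples 1, 2 and 3; over the members 0.95, 0.99 and 0.95), and blocked values are printed. Nothing states that the libraries were replicated beyond 1 per mouse. The antibiotic term used all 8 libraries. WT ABX values shared by 2 or more genes were left out there. The untreated fit without the block and the antibiotic term were run on simulated data without couple effects, with changes larger than those of any member. The blocked untreated fit was not tested in this way. Exon lengths and gene positions are from GENCODE on GRCm38 (87 of 88 members matched), start-site windows from RefSeq (63 of 88). Python 3.11.15 with pandas 2.3.3 made the summaries.

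Genes named are members past the threshold without a block (0), the 12 largest and 6 smallest changes, the 3 highest and 3 lowest mean values among members above 0 in all 6 untreated libraries, members with listed roles, and the 3 largest and 3 smallest antibiotic minus untreated differences. Members set apart by couple 2 and genes of the other lists were chosen after their values were seen. The members and lists were chosen with earlier results of these data known. Some genes that the rule or the lists name are not reported here. No test was made over the members as a set.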

Additional observations from a re-analysis of the deposited data

How the results depend on the processing

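The median change of the members in untreated ileum was 0.31 to 0.45 under each alternative run, and 0 members were called lower in any of them. With the couple as a replicate block, 32 members were called higher, as were 984 genes, with 1161 genes lower; with exon length corrected as well these counts were 26, 1026 and 1122, against 0, 135 and 118 without either. limma without the trend called 1 member, and no filter on low values left 7 genes higher and 4 lower. Leaving out a couple or a library, with or without the block, gave 0 to 6 members higher and, over all genes, 0 to 248 higher and 0 to 275 lower. Those fits have fewer samples, and each library left out without the block also breaks a couple.

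For the antibiotic term (14 genes higher, 3 lower), no replicate block gave 7 and 1, a pseudocount of 0.1 gave 32 and 8, and no filter gave 0 and 0. Keeping the shared WT ABX values gave 153 and 103, with 5 members higher and 3 lower, and leaving out an untreated couple gave 11 to 27 and 1 to 6. The KO minus WT difference in the share of summed values was 0.318 percentage points without the 100 highest genes of each library, members among them included, against 0.938. Except where stated, the cause was not tested.

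Some single members changed sign. With exon length corrected, with or without the block, the change was -0.021 for Rps4x, -0.083 for Rps26, -0.00049 for Rpl21 and -0.25 for Rplp1, and with a pseudocount of 0.1 it was -0.019 for Rpl21. With a couple or library left out, the change ranged from -0.024 to 0.32 for Rpl10, -1.31 to 1.19 for Rpl21, -0.32 to 1.63 for Rpl22l1, -0.27 to 1.59 for Rpl24 and -0.12 to 0.35 for Rpl28. It ranged from -0.022 to 1.37 for Rpl36, -0.50 to 1.33 for Rpl39, -0.21 to 0.13 for Rpl4, -0.074 to 0.47 for Rpl7, -0.11 to 0.47 for Rplp1, -0.28 to 0.31 for Rps26 and -0.10 to 0.25 for Rps4x. The antibiotic minus untreated difference ranged from -0.050 to 0.058 for Rpl11, -0.077 to 0.25 for Rpl21, -0.047 to 0.013 for Rpl39, -0.24 to 0.056 for Rpl5, -0.088 to 0.17 for Rps16 and -0.060 to 0.098 for Rps3. Depth is unknown, so it cannot be said how far low values such as those of Rpl21 and Rpl29 rest on few reads.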
